A study of Mus musculus and Bos taurus with 2 samples.

Results

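Kinesins are motor proteins that burn ATP to step along microtubules. Some of them build the mitotic spindle, slide or shorten its microtubules, carry chromosomes and complete cytokinesis, while others haul vesicles, organelles and mRNA between the cell centre and the periphery. In an early embryo the cleavage divisions follow each other with little growth in between, so spindles must be built again and again in large cells.

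The genes described here are those whose name begins with Kif followed by a digit or the letter c, in either case, and that have at least 1 transcript model on their own strand (a sense model, defined below). The mouse library held 32 such genes of 14090 named genes with a sense model, and the bovine library held 36 of 13375. These 32 mouse genes carried 87 of the 31354 sense models of the mouse library, and the 36 bovine genes carried 114 of 33163. One bovine gene, KIF1BP, met the naming rule but is not a motor: it encodes a protein that binds kinesins. Its mouse counterpart bears the name Kifbp, outside the rule, and had 3 sense models.

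Pooled whole embryos made in vitro were sequenced as nanopore cDNA, and the reads were assembled into transcript models. The mouse library came from late 2-cell embryos of superovulated Slc:ICR females, fertilized in vitro, cultured in KSOM and taken 36 h after insemination. The bovine library came from embryos of 8 to 16 cells, taken 72 h after insemination, grown from in vitro matured oocytes of cattle that were either Japanese Black or an F1 with Holstein (Japanese Black × Holstein F1), and sperm of a Japanese Black bull. Each library used RNA of about 200 embryos, and each species had 1 library. No replicate exists, so no p-value was computed, and species, stage, hours and reference annotation differ together and cannot be told apart. The files hold no read count or abundance: a gene with more models is not shown to have more RNA, a gene without a model is not shown to be silent, and the depth is unknown.

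Each model carries a code for its relation to the closest reference transcript. A model was called an exact match where its chain of introns equals that of a reference transcript, and a sense model where it is an exact match, lies within a reference transcript, contains one, retains introns of one, shares at least 1 splice junction with one, or overlaps one on the same strand in another way. Intervals given for shares are Clopper-Pearson 95% intervals. They cover counting error only and treat models as independent draws, although the models of 1 gene share reads and sequence.

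Markers of oocyte and early embryo had sense models in both libraries: 12 of 12 in mouse and 11 of 12 in bovine. Cumulus and granulosa markers had them for 9 of 15 in mouse and 7 of 15 in bovine, and markers of sperm and testis for 4 of 10 in mouse and 6 of 10 in bovine. Over all mouse protein-coding genes, 52.2% had a sense model. Of the cumulus and granulosa list, Fn1, Hsd3b1, Tnfaip6 and Col1a1 had sense models in both libraries, and Ptx3, Cyp19a1 and Amh had none in either. Of the sperm and testis list, Odf2 (17 models in mouse, 20 in bovine), Ldhc (5 in mouse, 8 in bovine) and Tnp1 (1 in each) had sense models in both, and Prm1, Akap4 and Acr had none in either. Whether RNA of such other cells was present, and whether it entered the kinesin models, was not tested.

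In mouse, 32 of the 42 kinesin genes of the GENCODE M21 annotation had a sense model, which is 76.2% (60.5% to 87.9%), against 11472 of 21992 protein-coding genes, or 52.2%. The 10 without one were Kif12, Kif19a, Kif1a, Kif21b, Kif26a, Kif27, Kif28, Kif2b, Kif5a and Kif7, and of these Kif1a and Kif28 had models only inside an intron or on the opposite strand. Counting mouse Kif4 and bovine KIF4A as counterparts, 30 genes had a sense model in both libraries. Kif1c and Kifc5b had one in mouse and not in bovine. KIF19, KIF27, KIF2B, KIF5A, KIF7 and the non-motor KIF1BP had one in bovine and not in mouse.

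**Figure D1:**
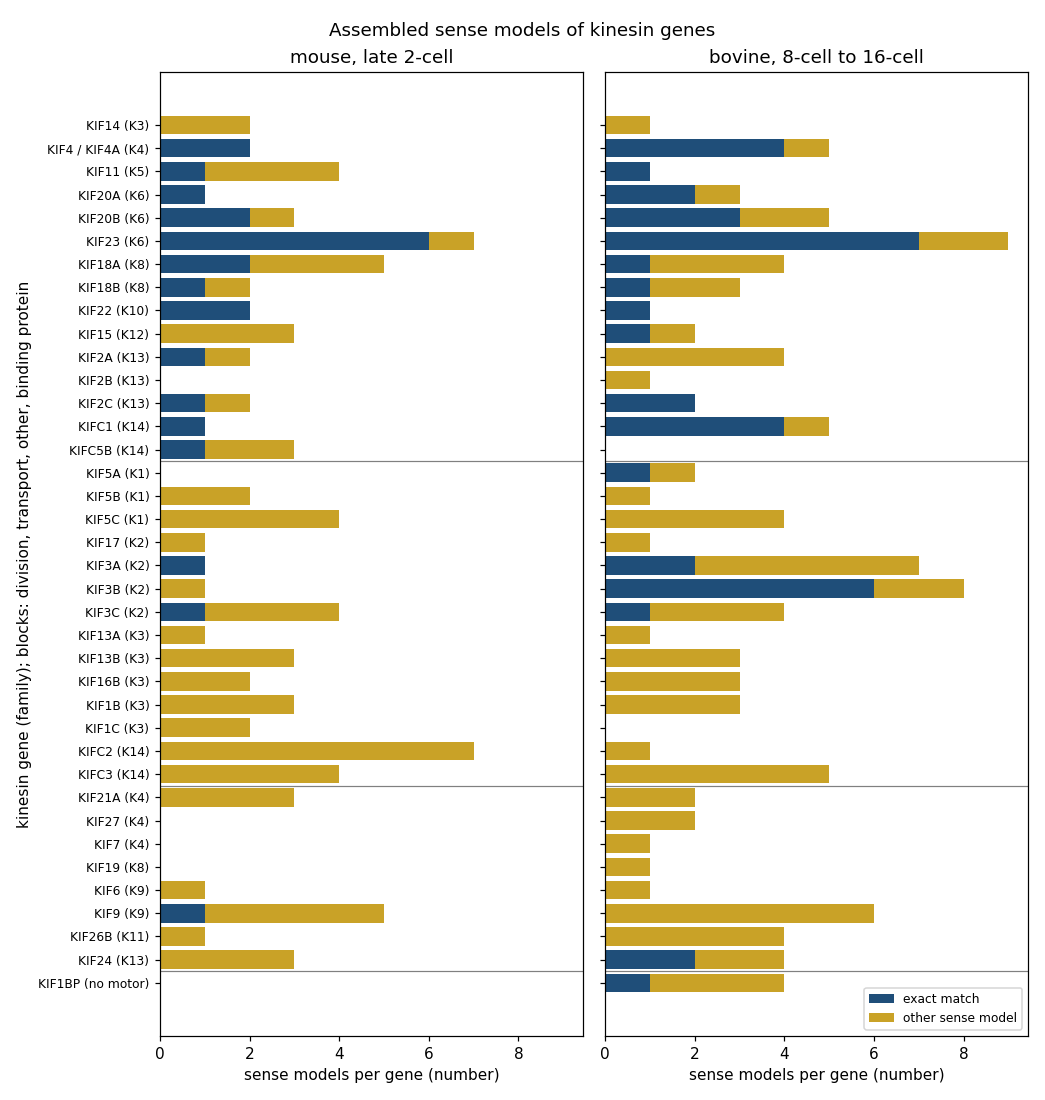
Number of sense models (horizontal axis) of each kinesin gene (rows, with the kinesin family number after K), mouse at left and bovine at right, with exact matches in blue and other sense models in ochre. KIF23 has the longest bars, with 7 models in mouse, a number shared by Kifc2, and 9 in bovine, and blue fills most of the division block while ochre fills most of the transport block.

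Of the 3 groups of motors, the kinesins of cell division had the largest share of exact matches. Over all genes of each library, exact matches made up 55.4% of sense models in mouse and 44% in bovine. By gene, 72.5% of mouse genes and 65.5% of bovine genes with a sense model had one. The intervals of the division kinesins hold these values, and those of the transport kinesins lie below them. In mouse, 14 division genes held 39 sense models, of which 21 were exact matches, a share of 53.8% (37.2% to 69.9%). In bovine, 14 division genes held 46 sense models with 27 exact matches, a share of 58.7% (43.2% to 73%). The transport kinesins had 2 exact matches among 35 models of 13 genes in mouse, 5.71% (0.7% to 19.2%), and 10 among 43 models of 13 genes in bovine, 23.3% (11.8% to 38.6%). The remaining motor genes had 1 exact match among 13 models of 5 genes in mouse and 2 among 21 models of 8 genes in bovine. By gene, at least 1 exact match was found in mouse for 12 of 14 division genes, 85.7% (57.2% to 98.2%), and 2 of 13 transport genes, 15.4% (1.92% to 45.4%). In bovine it was found for 11 of 14 division genes, 78.6% (49.2% to 95.3%), and 4 of 13 transport genes, 30.8% (9.09% to 61.4%). The mouse intervals by gene lie apart and the bovine ones overlap, and since models of 1 gene are not independent and the roles were assigned with earlier results known, these intervals are no test.

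Taken over all members, exact matches made up 27.6% of the mouse kinesin models (18.5% to 38.2%), below the 55.4% of all mouse sense models, and 35.1% of the bovine kinesin models (26.4% to 44.6%), against 44% of all bovine sense models. By gene, 15 of 32 mouse kinesins had at least 1 exact match, 46.9% (29.1% to 65.3%), where 72.5% of all mouse genes with a sense model did. In bovine the count was 17 of 36, 47.2% (30.4% to 64.5%), where 65.5% of all genes did. Both kinesin shares lie below their background. The longest coding sequence of the mouse members has a median of 2864 bases, against 1326 over 11470 protein-coding genes with a sense model. Of those 11470 genes, 76.2% had an exact match. Among the 2991 of them with a coding sequence of 1980 to 6336 bases, the range of the kinesins, 59.7% had one. The interval of the mouse kinesins by gene holds 59.7%. How much of the difference goes with length was not tested further.

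**Figure D2:**
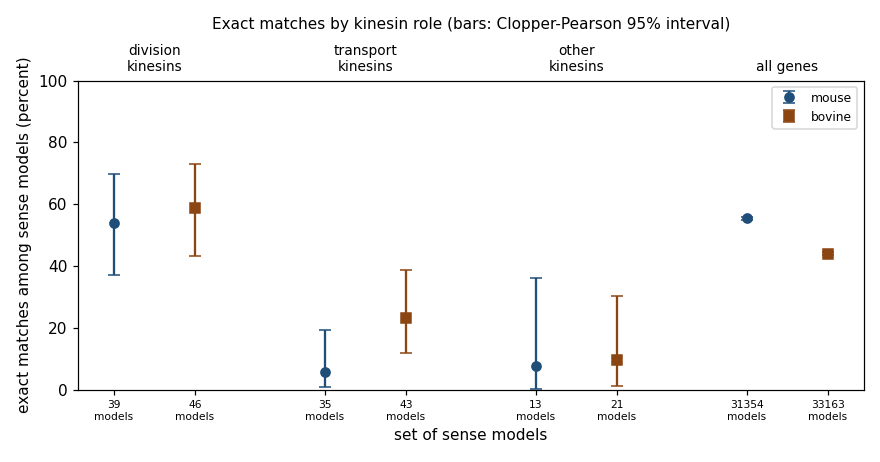
Share of sense models that are exact matches, in percent (vertical axis), for division, transport and other kinesins and for all genes, with mouse as circles and bovine as squares, and with the number of models under each point; bars are Clopper-Pearson 95% intervals. Division kinesins stand at 53.8% in mouse and 58.7% in bovine, above transport kinesins at 5.71% and 23.3%. All genes stand at 55.4% in mouse and 44% in bovine.

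An exact match in both libraries was found for 12 genes, of which 10 are division kinesins: KIF11, KIF18A, KIF18B, KIF20A, KIF20B, KIF22, KIF23, KIF2C, KIF4 and KIFC1, beside the transport kinesins KIF3A and KIF3C. The 12 are 40% of the 30 kinesins with a sense model in both libraries, where 67.6% of 8467 gene names with a sense model in both had an exact match in both. KIF2A and KIF9 had one in mouse alone, and KIF15, KIF24 and KIF3B in bovine alone, among genes with a sense model in both. For 13 genes with models in both libraries neither held an exact match: KIF13A, KIF13B, KIF14, KIF16B, KIF17, KIF1B, KIF21A, KIF26B, KIF5B, KIF5C, KIF6, KIFC2 and KIFC3. Of these, KIF14 alone is a division kinesin.

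The motor of a kinesin holds ATP in a short loop, the P-loop, whose lysine binds the phosphates of the nucleotide. Its codons mark on the genome whether a model reaches into the ATP-binding part of the motor. The loops were found by a search that allowed at most 2 differences from the motif, so their likeness follows from the search. The codons of 5 genes that had a mouse model over the loop, and of 3 that had none (Kif1b, Kif3b and Kif6), are given here from GENCODE M21 transcripts on GRCm38, 24 bases each, with the lysine codon in capitals.
Kif11 (chr19:37384736-37384759, + strand): ggtcagactggcactggaAAAact
Kif23 (chr9:61937178-61937201, - strand): ggcgtgacgggaagtggaAAAacc
Kif2c (chr4:117167297-117167320, - strand): ggacagacaggcagtgggAAGaca
Kifc1 (chr17:33883384-33883407, - strand): ggacagacaggcagtggcAAGacc
Kif5c (chr2:49680203-49680226, + strand): gggcagacttcatcaggaAAAact
Kif1b (chr4:149274967-149274990, - strand): gggcagactggtgctgggAAAtcc
Kif3b (chr2:153316566-153316589, + strand): ggacaaacaggaactgggAAAacc
Kif6 (chr17:49671070-49671093, + strand): gggcagacgggcagtggcAAGaca

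Of 31 mouse members with a recognisable P-loop, 25 had at least 1 model over all its codons. Over these 31 genes, 56 models held the loop and 30 did not, and Kif26b, of the kinesin-11 family, has no loop that met the search. The division group had the loop in 35 of 39 models, the transport group in 18 of 35 and the others in 3 of 13. Of the 18 transport models, 7 are those of Kifc2, whose loop begins at residue 486 of 792. The 6 mouse genes whose models all lacked it were Kif13a, Kif17, Kif1b, Kif21a, Kif3b and Kif6. With the switch II motif of the motor in place of the P-loop, 21 genes had a model over it. That search took only the exact residues LAGSE and allowed no difference. It found no match in Kif2a and Kif2c, and whether they carry a variant of the motif was not tested. In bovine, without an annotation, the loop could be placed only where at least 3 internal exon lengths in a row equal those of the mouse gene: 22 motor genes had a model with it, KIF13A and KIF5B had models that all lacked it, and 11 could not be decided.

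The reach of the mouse models along the coding sequence differed between the same groups, whose roles were assigned with earlier results known. A model was said to reach an end of the longest annotated coding sequence when it came within 1% of that end. All exact matches of division and transport genes reached both ends, so this measure is not independent of the share of exact matches. Both ends were reached by 27 of 39 division models, 69.2% (52.4% to 83%), by 7 of 35 transport models, 20% (8.44% to 36.9%), by 0 of 13 models of the other kinesins (0% to 24.7%), and by 62.6% of 27371 models of protein-coding genes. Transport models most often reached the last coding base and not the first: 18 of 35 did, 51.4% (34% to 68.6%), against 5 of 39 division models, 12.8% (4.3% to 27.4%), and 21.6% of the models of all genes. The 18 come from 8 genes, and 7 of them are the Kifc2 models, which share both ends and are not independent. The 5 division models come from 5 genes.

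At least 1 annotated coding sequence lay whole in 1 model for 20 of 32 mouse kinesins, 62.5%, where 80.9% of protein-coding genes with a sense model had one. For the longest coding sequence of each gene the count was 14 of 32, 43.8% (26.4% to 62.3%). Of all such genes 67.3% had it whole. Of those with a coding sequence in the kinesin length range 48.4% did, a share that the kinesin interval holds. The 14 kinesins were 11 division genes (Kif11, Kif18a, Kif18b, Kif20a, Kif20b, Kif22, Kif23, Kif2c, Kif4, Kifc1 and Kifc5b) and 3 transport genes (Kif3c, Kif5b and Kifc3). Division genes had a median longest coding sequence of 2660 bases (1980 to 5322), transport genes one of 2889 (2175 to 5541) and the other members one of 4068 (2406 to 6336). These ranges overlap, and whether length goes with the difference between the groups was not tested.

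**Figure D3:**
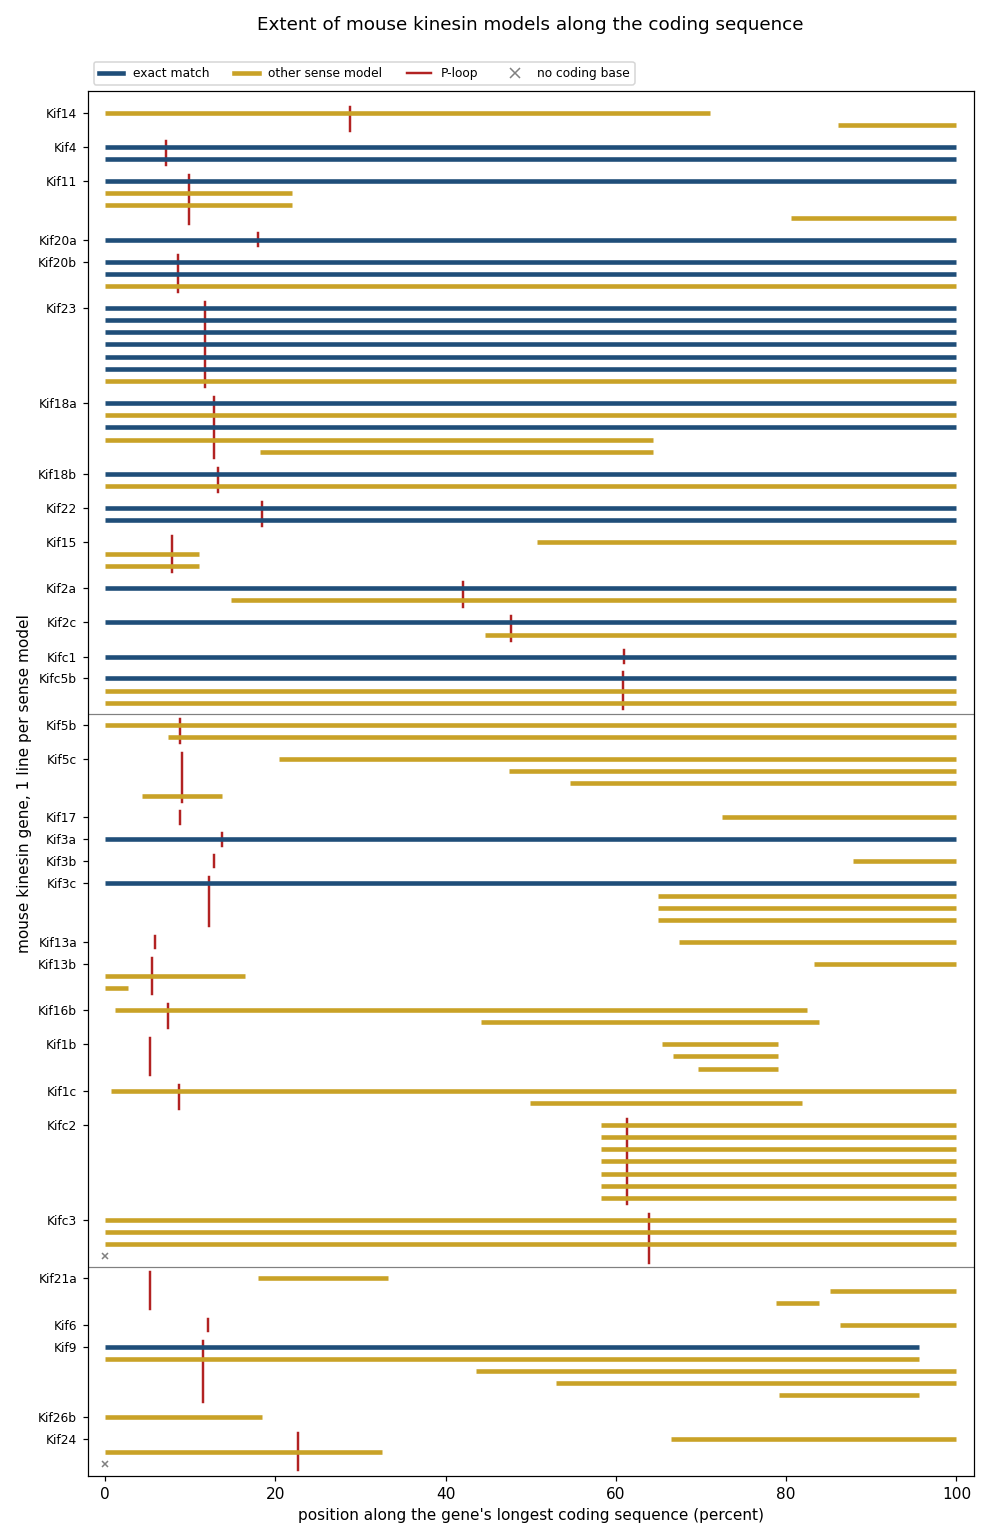
Extent of each mouse kinesin model from its first to its last coding base, as a position in percent along the gene's longest coding sequence (horizontal axis), 1 line per model grouped by gene (vertical axis), with exact matches in blue, other sense models in ochre, the P-loop as a red tick and grey lines between division, transport and other genes. Most lines of the division block run from 0 to 100, and the models of Kif13a, Kif17, Kif1b, Kif21a, Kif3b and Kif6 lie away from the red tick.

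KIF23 had the most models of any kinesin in bovine, and in mouse it shared that place with Kifc2. KIF23 encodes the motor of centralspindlin, the complex that bundles microtubules at the spindle midzone and anchors the ring that divides the cell. Mouse Kif23 (chr9:61917277-61946810, - strand, GRCm38) had 7 models, of which 6 were exact matches, and bovine KIF23 (chromosome 10, + strand, bosTau9) had 9, of which 7 were exact matches. All 7 mouse models start in 1 start group and contain the P-loop. The longest mouse model has 24 exons and 3467 bases, and its bovine counterpart has 24 exons and 3699 bases. Exon for exon, 20 of the 24 lengths are equal between the species. The differences are in the first exon (190 bases in mouse, 207 in bovine), exon 19 (312 in mouse, 309 in bovine), exon 20 (228 in mouse, 231 in bovine) and the last exon (403 in mouse, 618 in bovine).

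The variation between the KIF23 models lay mostly in a few exons. In bovine, 1 model without an exact match lacked exons 2 to 4, and another lacked exon 4. A bovine exact match lacked exon 24 and had 2 exons outside the chain, ending at position 16341370 of chromosome 10. These models are included in the counts that follow. Exon 8, of 42 bases in both species, was present in 5 of 7 mouse models and in 4 of 9 bovine models. Exon 19 was present in 3 of 7 mouse models and in 5 of 9 bovine models. In human cells the exon of this place tells the longer CHO1 form, which binds actin, from the shorter MKLP1 form. The 4 possible combinations of exons 8 and 19 were each seen in both libraries: in mouse 2 models had both, 1 had neither, 3 had exon 8 alone and 1 had exon 19 alone, and in bovine the numbers were 2, 2, 2 and 3. Exon 20 was in all 7 mouse models and was absent from 2 of 9 bovine models, 1 of them also without exon 19. Exon 22 varied in mouse alone: it had 82 bases in 4 models, 79 bases in 2 and was skipped in 1, while the 9 bovine models had 79 bases. The lengths 42, 312 and 309 are multiples of 3, so that leaving these exons out keeps the reading frame, whereas 82 and 79 are not.

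These exons are shown because they are what tells the Kif23 models apart. The sequences are from annotated mouse transcripts on GRCm38, - strand. Exon 8 is given whole in capitals. For exon 19, the 25 bases of exon 18 before the junction are in lower case, and the first 25 bases of the exon joined to it are in capitals. For exon 22 the capitals mark the 3 bases that the 79-base form leaves out, where the splice acceptor lies 3 bases further on.
Kif23 exon 8 (chr9:61933229-61933270): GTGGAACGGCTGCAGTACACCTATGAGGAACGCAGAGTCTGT
Kif23 exon 18 joined to exon 19 (chr9:61924632-61924656 and chr9:61924192-61924216): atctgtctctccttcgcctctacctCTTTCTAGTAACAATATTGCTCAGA
Kif23 exon 18 joined to exon 20 (chr9:61924632-61924656 and chr9:61921222-61921246): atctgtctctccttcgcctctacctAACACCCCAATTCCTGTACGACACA
Kif23 exon 22 (chr9:61919612-61919693): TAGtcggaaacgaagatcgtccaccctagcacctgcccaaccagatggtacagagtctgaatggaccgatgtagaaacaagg

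**Figure D4:**
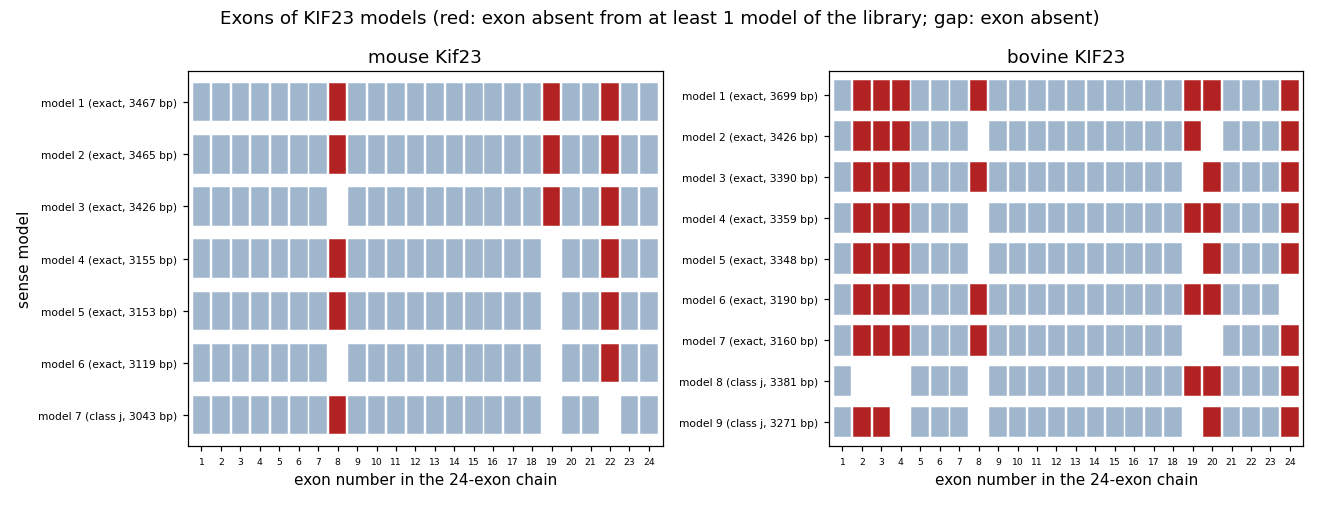
Exons (horizontal axis, numbered along the 24-exon chain) present in each KIF23 sense model (rows, with model class and spliced length in bases), mouse at left and bovine at right; red marks exons that at least 1 model of that library lacks, and a gap marks an absent exon. In mouse the gaps are at exons 8, 19 and 22, and in bovine at exons 2 to 4, 8, 19, 20 and 24.

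Other division kinesins showed fewer forms. KIF11, the kinesin-5 that slides spindle microtubules apart, had 4 mouse models and 1 bovine model, each library with 1 exact match; both exact matches have 22 exons. The 3 further mouse Kif11 models are partial, 2 of them covering the first 22% of the coding sequence and 1 its last 19.4%. KIF4, a chromokinesin, had 2 mouse models, both exact, and 5 bovine models under KIF4A, of which 4 were exact. In both species a 99-base exon in the later part of KIF4 was present in some models and skipped in others: 1 model with and 1 without in mouse, and 3 with and 1 without in bovine. The mouse exon is shown because its length is the same in both species.
Kif4 cassette exon (chrX:100717937-100718035, + strand): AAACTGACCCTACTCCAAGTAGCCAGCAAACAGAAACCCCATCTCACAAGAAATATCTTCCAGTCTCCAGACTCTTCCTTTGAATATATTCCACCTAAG

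Among the kinesin-6 relatives of KIF23, KIF20A, which acts in cytokinesis, had 1 mouse model, an exact match, and 3 bovine models, 2 of them exact. KIF20B had 3 mouse models with 2 exact matches and 5 bovine models with 3 exact matches, and its exact matches had 32 exons in mouse and 33 in bovine. KIF18A, the kinesin-8 that dampens chromosome movement at the spindle equator, had 5 mouse models with 2 exact and 4 bovine models with 1 exact. KIF18B, which shortens astral microtubules, had 2 mouse models with 1 exact and 3 bovine models with 1 exact. KIF22, a chromokinesin, had 2 mouse models, both exact, and 1 bovine model, also exact. KIF14, which acts with citron kinase in cytokinesis, had 2 mouse models and 1 bovine model and no exact match. KIF15, which backs up KIF11 in holding the spindle open, had 3 mouse models with no exact match and 2 bovine models, 1 of them an exact match of 35 exons.

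The kinesin-13 motors do not walk but take microtubule ends apart. KIF2A had 2 mouse models with 1 exact and 4 bovine models with none. KIF2C, also called MCAK, had 2 mouse models with 1 exact and 2 bovine models, both exact. KIF2B had no mouse model and 1 bovine model, a single exon of 3079 bases that overlaps the reference on the same strand. The annotated mouse Kif2b transcript with the longest coding sequence also has 1 exon. The minus-end motor KIFC1 had 1 mouse model, an exact match, and 5 bovine models with 4 exact matches. Mouse Kifc5b, a near-identical copy of Kifc1 on the same chromosome, had 3 models with 1 exact. Reads of such a pair can be placed on either copy, so how the models divide between Kifc1 and Kifc5b is uncertain.

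The kinesin-2 genes are transport kinesins whose products move cargo inside cilia and along cell microtubules. KIF3B had 1 mouse model, with 2 exons over the last 12.2% of the coding sequence, and 8 bovine models with 6 exact matches of 9 to 11 exons. KIF3A had 1 mouse model, an exact match of 17 exons, and 7 bovine models with 2 exact matches. KIF3C had 4 models in each library with 1 exact match in each. KIF17 had 1 model in each library, neither of them exact. KIFAP3, the adaptor of the motors formed by KIF3A with KIF3B or KIF3C, had 1 model in each library, exact in mouse and not in bovine.

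The conventional kinesin-1 heavy chains had almost no exact match. KIF5B, the form found in most tissues, had 2 mouse models and 1 bovine model, none exact, although 1 mouse model held the whole longest coding sequence. KIF5C, known from neurons, had 4 models in each library and no exact match. Bovine KIF5A had 2 models, of which 1 was an exact match of 28 exons, and mouse had none. Kinesin-3 genes, carriers of vesicles and endosomes, had no exact match in either library: KIF13A had 1 model in each, KIF13B 3 in each, KIF16B 2 in mouse and 3 in bovine, and KIF1B 3 in each, while Kif1c had 2 in mouse. Of the Kif1c models, the one with more exons, 21, covers 98.3% of the longest coding sequence, and the other, of 2 exons, covers 31.9%.

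KIFC2 and KIFC3 are minus-end motors outside mitosis. Mouse Kifc2 (chr15:76665809-76668197, + strand) had 7 models that all begin and end at the same bases and cover at most 41.7% of the coding sequence, from its P-loop region to its end. They differ in which introns are kept and in which exons are skipped, among them exons of 122 and 257 bases. Bovine KIFC2 had 1 model. KIFC3 had 4 mouse models, 3 of them over 99.9% or more of the coding sequence without an exact match, and 5 bovine models, of which 4 share both ends and have 3 to 6 exons.

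The remaining motors include those known from cilia and flagella. KIF9 had 5 mouse models with 1 exact and 6 bovine models with none. KIF6 had 1 model in each library, KIF21A 3 in mouse and 2 in bovine, and KIF26B 1 in mouse and 4 in bovine, with no exact match for any of these. KIF24, which restrains cilium assembly at the centriole, had 3 mouse models with no exact match and 4 bovine models with 2. KIF27 had 2 bovine models, and KIF7, of the Hedgehog pathway, and KIF19 had 1 each, with none exact and no mouse model. The non-motor KIF1BP had 4 bovine models with 1 exact.

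Members with at least 4 sense models numbered 8 of 32 in mouse, 25% (11.5% to 43.4%), where 16.5% of all genes with a sense model had as many. In bovine they numbered 15 of 36, 41.7% (25.5% to 59.2%), where 21.1% of all genes did. The mouse interval holds the share of all genes, and the bovine one lies above it. Some exons were present in 1 model and skipped in another of the same gene. Of mouse kinesins with at least 2 spliced models, 9 of 24 had one, 37.5% (18.8% to 59.4%), near the 41.6% of all such genes. In bovine 14 of 25 kinesins did, 56% (34.9% to 75.6%), an interval that holds the 42.3% of all such genes. The mouse members held 16 such exons, 7 with a length that is a multiple of 3, and the bovine members held 23, 9 of them multiples of 3. The share of 43.8% in mouse (19.8% to 70.1%) is near the 40.4% of all such mouse exons, and the share of 39.1% in bovine (19.7% to 61.5%) is near the 41.3% of all such bovine exons.

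Starts of the kinesin models lay away from annotated starts more often than those of other genes. In mouse, 41 of 87 kinesin models began within 100 bases of an annotated start, 47.1% (36.3% to 58.1%), against 69.7% of 29682 sense models of annotated genes. Annotated starts and exons here are those of GENCODE M21, and exons of the library's exact matches also counted as annotated. Other RefSeq transcripts, to which the class codes refer, were not checked. A model of at least 2 exons whose first exon overlaps no annotated exon of that strand was found for 10 of 32 mouse kinesins. This is 31.2% (16.1% to 50%), an interval that holds the 17.4% of all genes. The 10 were Kif11, Kif14, Kif16b, Kif1b, Kif21a, Kif2a, Kif2c, Kif5b, Kif5c and Kif9. The first exon of the Kif14 model lies 62 bases from an annotated start. The others begin within the gene, from 2287 bases (Kif5c) to 41430 bases (Kif9) from the nearest annotated start. Judged against the exact matches of the library alone, 5 of 15 mouse kinesins had such a first exon, 33.3% (11.8% to 61.6%), where 15.8% of all genes did. In bovine 2 of 17 kinesins, KIF3A and KIF3C, had one, 11.8% (1.46% to 36.4%), where 16.5% of all genes did. Both intervals hold the share of all genes. Kif3c and KIF3C both had models that begin well inside the gene, 3 of 4 in each library. Their first exons have 330 or 391 bases in mouse and 233, 325 or 739 bases in bovine. The mouse ones begin 256 or 317 bases from a GENCODE start, and their first exons overlap GENCODE exons.

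The promoters of the mouse division kinesins shared a short motif. Genes that are repressed outside the late cell cycle often carry the CHR element, TTTGAA, close to their start, where the DREAM complex can bind. RefSeq promoter windows on GRCm38.p6, 250 bases before to 50 after the start, were matched for 27 of 32 mouse members. TTTGAA on either strand was in 11 of 13 division kinesins with a window, 84.6%, in 0 of 9 transport kinesins and in 1 of 5 others (Kif26b), while 17.9% of 32851 windows held it. The roles were assigned with earlier results of these data known. The 11 were Kif11, Kif14, Kif15, Kif18b, Kif20b, Kif22, Kif23, Kif2c, Kif4, Kifc1 and Kifc5b, and the division kinesins without it were Kif18a and Kif2a. In 9 of the 11 the nearest match begins within 50 bases of the RefSeq start, from 19 bases before it (Kif11 and Kif15) to 29 after it (Kifc5b). In Kif14 and Kif2c the match lies 228 and 103 bases before the start, and no model of the library began in those windows. Over all members, the motif was in 9 of 15 windows in which a model began and in 3 of 12 others. All 9 belong to division kinesins. Of the 9 transport kinesins with a window, only Kif3a and Kif3c had a model beginning in it. The split by model starts is therefore not independent of the split by role. Among the 15, Kif23 had all 7 models starting there, from 11 bases before to 31 bases after the RefSeq start, and Kif11 had 3 of 4 starting on that base. The windows of both are shown because transcripts of the library begin in them, with the match in capitals, which in Kif11 is on the opposite strand.
Kif23 promoter (chr9:61946750-61947049, - strand): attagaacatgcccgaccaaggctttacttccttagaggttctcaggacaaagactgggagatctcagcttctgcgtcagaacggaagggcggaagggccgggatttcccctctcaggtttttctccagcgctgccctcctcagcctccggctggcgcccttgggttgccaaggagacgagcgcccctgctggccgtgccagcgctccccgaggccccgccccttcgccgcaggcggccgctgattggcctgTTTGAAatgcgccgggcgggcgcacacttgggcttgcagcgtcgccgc
Kif11 promoter (chr19:37376132-37376431, + strand): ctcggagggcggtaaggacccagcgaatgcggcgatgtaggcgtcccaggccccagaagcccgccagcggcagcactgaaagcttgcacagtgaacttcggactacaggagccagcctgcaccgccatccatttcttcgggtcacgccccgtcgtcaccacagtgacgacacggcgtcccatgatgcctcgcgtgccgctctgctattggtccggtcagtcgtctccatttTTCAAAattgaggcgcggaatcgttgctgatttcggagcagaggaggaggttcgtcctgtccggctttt
A match of these letters is a description of the window and not a bound site.

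Genes of proteins that work with kinesins were also looked up. Of 31 listed partner symbols, 28 had a sense model in mouse, 23 with an exact match, and 27 in bovine, 17 with an exact match. Kifbp and Kif1bp in this list are names of 1 gene. Beside these counts, 52.2% of mouse protein-coding genes had a sense model, and of all genes with one, 72.5% in mouse and 65.5% in bovine had an exact match. The mouse partners with most models were the kinesin light chains Klc1 (9 models, 8 exact) and Klc4 (9, 4 exact), the midzone bundler Prc1 (9, all exact), the centralspindlin partner Racgap1 (8, 6 exact) and the spindle factor Tpx2 (7, all exact). The bovine ones were TPX2 (8 models, 5 exact), the midzone kinase AURKB (7, all exact), KLC1 (5, none exact), PRC1 (5, all exact) and, among 4 genes with 4 models, AURKC (2 exact). RACGAP1 had 3 bovine models, all exact. The centromere kinesin Cenpe, which has a name outside the rule, had 3 mouse models with 1 exact and 4 bovine models with 2 exact, and the kinesin Stard9 had 2 in each library with none exact.

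Dynein is the motor that runs opposite to most kinesins. Of 33 listed dynein, dynactin and adaptor symbols, 27 had a sense model in mouse, 24 with an exact match, and 29 in bovine, 25 with an exact match. The list holds Lis1, another name of Pafah1b1. It also holds Dynlt1, Dynlt1a and Dynlt1b, of which mouse had models under Dynlt1a and Dynlt1b and bovine under DYNLT1. Some symbols counted as missing are therefore not missing genes. The mouse genes with most models were Dync1i2 (7 models, 5 exact), Ndel1 (6, 3 exact), Dync1li2 (4, 1 exact), Dynll2 (4, 2 exact) and, among 5 genes with 3 models, Dctn3 (2 exact). In bovine they were DYNC1I1 (12 models, 2 exact), SPDL1 (9, 5 exact), PAFAH1B1 (8, 3 exact), DYNLL2 (6, 1 exact) and DYNC1I2 (5, all exact). The dynein heavy chain Dync1h1 had 1 model in each library and no exact match, as did Kif13a and Kif17.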

How the data were processed

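Per the labels' protocols, total RNA of about 200 embryos per library was turned into cDNA with a nanopore cDNA-PCR kit, amplified in 14 PCR cycles and sequenced on a MinION with a separate flow cell per library; both carry the label batch 1. Per the file headers, the authors deposited transcript models made with StringTie, with class codes that relate each to a reference transcript; the positions in the deposited files are genome coordinates and carry no count, coverage or score. The builds are mm10 and bosTau9, per the submitters' processing notes. The sources used here name no aligner, filter, strand setting or tool version. The mouse file holds 42028 models and the bovine file 40819.

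Kinesin genes, roles and lists were chosen with earlier results of these data known. Class codes =, c, k, m, n, j and o counted as sense. Mouse models were set against GENCODE M21 (same build), while the class codes refer to transcripts with RefSeq names. Coding sequences, the P-loop (G, Q, T, G, any, G, K, then S or T, at most 2 differences) and its codons came from the annotated transcripts. A cassette exon is one that another model skips with both neighbouring splice sites shared. Promoters came from RefSeq (GRCm38.p6). Named genes are all members, with detail for those with most models, with no exact match, with an unannotated first exon, in 1 library alone, or whose models lack the P-loop, and for the 5 partner or dynein genes with most models per library, ties in alphabetical order. Intervals used scipy 1.17.1, sequence translation biopython 1.88 and figures matplotlib 3.10.9 under Python 3.11.15. The calculations were tested on simulated models. With 1 library per species no test was run. Alternatives covered the class codes, single-exon models, names outside the rule, the annotation behind first exons, the coding share and the motif.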

Additional observations from a re-analysis of the deposited data

Results flagged for a closer look

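Models that carry a kinesin name but lie on the opposite strand of the gene or inside an intron stand outside the counts of the report, and both libraries held some: 14 in mouse and 7 in bovine. No control sample exists against which to set them. In mouse 10 of the 14 lie inside an intron and 4 overlap exons on the opposite strand, and 12 of the 14 run opposite to the gene. In bovine 1 lies inside an intron and 6 overlap exons on the opposite strand, and all 7 run opposite to the gene. Kif1b had the most in mouse, 5 models, 3 of them overlapping its exons on the opposite strand, of which 2 span the positions where 2 of its 3 sense models begin. Kif1a had 2 and Kif28 had 1, and neither has a sense model. In bovine, KIF26B had 3 models on the opposite strand that share both ends and have 2, 5 and 10 exons, and KIF2B had 1 of 2 exons that begins at position 3778544 of chromosome 19 and runs away from its single-exon sense model, which begins at 3778553 on the other strand. Whether strand was taken from the reads is not given in the sources used here, so strand errors in these models were not tested.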

How the results depend on the processing

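Counts of kinesin genes and shares of exact matches stayed within 1.5 times, or within their intervals, under 23 of 26 alternatives. Not all of the 23 could move far. Leaving out KIF1BP could not change the mouse count, and adding Cenpe and Stard9 only raised the counts to 34 in mouse and 38 in bovine. The change from 20 to 14 mouse genes with the longest coding sequence alone also counted as within 1.5 times. The 3 that moved were the restriction to exact matches, which left 15 of 32 genes in mouse and 17 of 36 in bovine, and the use of the library's exact matches as the annotation, under which 5 mouse kinesins in place of 10 had an unannotated first exon; there fewer genes could be tested. Without KIF23, a choice made after seeing the data, exact matches made up 22.5% of the mouse and 31.4% of the bovine kinesin models. Without KIF1BP, also chosen after seeing the data, 35 bovine genes remained. No paired analysis was possible because each species has 1 library and no result comes from a test. For the same reason no replicate could be left out. Depth is unknown, so the number of models per gene cannot be set against read support.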

Other observations

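Splice sites that differ by a few bases were found in kinesins of both species. Sites at most 100 bases apart that join to the same partner occurred at 3 places in 3 mouse genes and at 7 places in 7 bovine genes. Of kinesins with at least 2 spliced models these are 3 of 24 in mouse, 12.5%, where 30.6% of all such genes had one, and 7 of 25 in bovine, 28%, where 27% did. A distance of 3 bases at an acceptor was seen in mouse Kif23 and in bovine KIF24, KIF4A and KIFC1. Distances that are no multiple of 3 were seen in mouse Kif11 (73 bases) and Kif18a (4 bases) and in bovine KIF20B (43 bases) and KIF3B (50 bases).

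An intron of one model kept in an exon of another was found in 4 of 24 mouse kinesins with at least 2 models, 16.7%, where 20.5% of all such genes had one, and in 4 of 25 bovine kinesins, 16%, where 16.9% did. The mouse genes were Kif1c with 5 introns, Kifc2 with 6, Kif3c with 2 and Kif22 with 1. The bovine genes were KIF4A with 2 introns and KIF2A, KIF3B and KIFC3 with 1 each.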
